A study of Mus musculus with 4 samples.

Results

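The genes described here are 36 listed targets of the hypoxia-inducible factor (HIF) and enzymes of glycolysis. They form a list of names that was chosen with earlier results of these data known. Of the 36, 34 had a microarray probe set assigned to 1 gene and were measured, and 32 of these were above background on at least 1 array, out of 18194 genes measured and 13448 above background. *Eno1* and *Gpi1* were not analysed here. The glycolytic list therefore holds 12 of its 14 genes.

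HIF is a transcription factor whose α subunit is hydroxylated on prolines when oxygen is present, which marks it for degradation. When oxygen is short the α subunit accumulates, pairs with its β partner and binds a short core sequence near genes for glucose uptake, glycolysis, lactate production, red cell formation and vessel growth. In brain cortex, neurons and glia depend on a steady supply of glucose, and arterial occlusion cuts off oxygen and glucose together. P4H-TM is a prolyl 4-hydroxylase of the endoplasmic reticulum membrane that contributes to the control of HIF.

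Gene expression was measured on 4 arrays of cortex from mice of the strain C57BL/6J, 3 months old, after 24 h of permanent occlusion of the left middle cerebral artery (pMCAO). The groups were wild-type contralateral cortex (WT_c), wild-type ipsilateral cortex (WT_i), P4H-TM deficient contralateral cortex (KO_c) and P4H-TM deficient ipsilateral cortex (KO_i). The P4H-TM deficient mice are called P4htm-/- below. Every mouse had been operated on, so the contralateral cortex served as the control and no unoperated cortex is among the arrays. Each array held the pooled RNA of 4 mice and there was 1 array per condition. The study's methods give 4 mice per genotype, so the arrays of the 2 sides of a genotype came from the same animals. With 1 array each, no difference has a replicate check, a standard error or a test. Whole cortex was used, so fewer cells of a type and less RNA per cell cannot be told apart.

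Values are log2 expression values, and a difference of 1 on this scale is a doubling. A gene is called higher or lower below only where 2 arrays differed by at least 1.5-fold, which is 0.585 on the log2 scale, with at least 1 of them above the background limit of 4.79. The limit comes from 81 probe sets of smell, pheromone and bitter taste receptor genes, which cortex is not known for expressing, as the 95th percentile of their values. The differences of those receptor probe sets had an SD between 0.175 and 0.206 in the 4 comparisons, which gives a scale for the noise of dim probe sets on single arrays. *P4htm* itself read 10.03 in WT_c, 10.02 in WT_i, 8.27 in KO_c and 8.23 in KO_i, so both P4htm-/- arrays were lower, with differences of -1.76 and -1.79. These values come from the brighter of 2 probe sets, of a kind whose probes may also bind other sequences, and the other is not shown. It is not known here if the *P4htm* probe sets fall inside the deletion. All 10 neuronal markers were above background, with a mean log2 level of 11.7 to 11.8 on the 4 arrays.

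Promoter sequences of 4 of the genes are shown, chosen by the values of the brightest probe set of each gene. By these values 2 of them, *Hk2* and *Adm*, were the only listed genes past 1.5-fold. The other 2, *Bnip3* and *Ankrd37*, had the next largest gap between the genotypes after *Adm*. They are the 250 bases before the annotated transcription start, from RefSeq on the mouse build GRCm38.p6, written 5′ to 3′ in the direction of the gene. They lie at chr6:82774455-82774704 on the minus strand (*Hk2*), chr7:110627407-110627656 on the plus strand (*Adm*), chr7:138909507-138909756 on the minus strand (*Bnip3*) and chr8:45999851-46000100 on the minus strand (*Ankrd37*). Capitals mark the core of the hypoxia response element, searched as ACGTG and GCGTG on both strands, so that CACGT and CACGC are the same cores read on the other strand. A palindromic CACGTG holds ACGTG on both strands and is also the E-box that other factors bind.
Hk2: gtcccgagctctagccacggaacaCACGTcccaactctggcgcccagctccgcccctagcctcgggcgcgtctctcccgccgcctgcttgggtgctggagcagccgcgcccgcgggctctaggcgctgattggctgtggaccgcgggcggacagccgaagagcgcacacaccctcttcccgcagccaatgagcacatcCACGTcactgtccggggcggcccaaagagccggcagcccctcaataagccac
Adm: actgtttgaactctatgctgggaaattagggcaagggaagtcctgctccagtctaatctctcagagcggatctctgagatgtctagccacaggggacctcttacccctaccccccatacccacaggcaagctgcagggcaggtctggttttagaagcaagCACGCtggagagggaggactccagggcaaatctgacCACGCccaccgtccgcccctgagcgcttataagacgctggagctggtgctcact
Bnip3: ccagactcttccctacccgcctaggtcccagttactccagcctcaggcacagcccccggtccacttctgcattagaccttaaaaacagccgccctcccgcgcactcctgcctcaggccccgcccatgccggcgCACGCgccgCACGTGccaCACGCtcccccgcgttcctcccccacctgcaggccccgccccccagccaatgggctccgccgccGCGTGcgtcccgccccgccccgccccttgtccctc
Ankrd37: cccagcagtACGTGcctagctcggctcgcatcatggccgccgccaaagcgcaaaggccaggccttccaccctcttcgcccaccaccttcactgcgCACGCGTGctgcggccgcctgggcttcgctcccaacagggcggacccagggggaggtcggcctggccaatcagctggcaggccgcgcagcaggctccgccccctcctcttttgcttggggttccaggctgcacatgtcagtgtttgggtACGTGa
The *Hk2* sequence held 2 cores, 226 and 52 bases before the start, both ACGTG on the other strand. The *Adm* sequence held 2 cores, 90 and 54 bases before the start, both GCGTG on the other strand. *Bnip3* had 5 cores between 117 and 35 bases before the start, a pair of which are the strands of 1 CACGTG. *Ankrd37* had 4 cores, from 241 to 6 bases before the start.

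Windows of 300 bases, from 250 before to 50 after the start, were found for 32 of the 36 genes, 49 windows in all. *Slc2a3*, *Bhlhe40*, *Angptl4* and *Ndrg1* had no entry. At least 1 core stood in 37 of the 49 windows (75.5%), against 43.8% of all 32851 promoter windows. ACGTG stood in 25 of them (51.0%, against 19.6%) and GCGTG in 26 (53.1%, against 32.4%), while CACGTG stood in 4 (8.2%, against 7.2%). The genes were listed as HIF targets to begin with, so these shares describe the list. A match shows only that the letters are present.

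Most of the listed genes differed little between the 4 arrays. The gap between a gene's highest and lowest array had a median of 0.21 on the log2 scale over the 32 genes above background, from 0.07 for *Kdm3a* to 1.10 for *Adm*, and the median over all 13448 genes was 0.23. The gap reached 1.5-fold in 2 of the 32 genes (6.25%) and in 4.885% of all genes. Among the 2419 genes with a mean log2 level of at least 10, where many of the glycolytic enzymes lie, the median gap was 0.19 and 1.116% reached 1.5-fold.

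**Figure D1:**
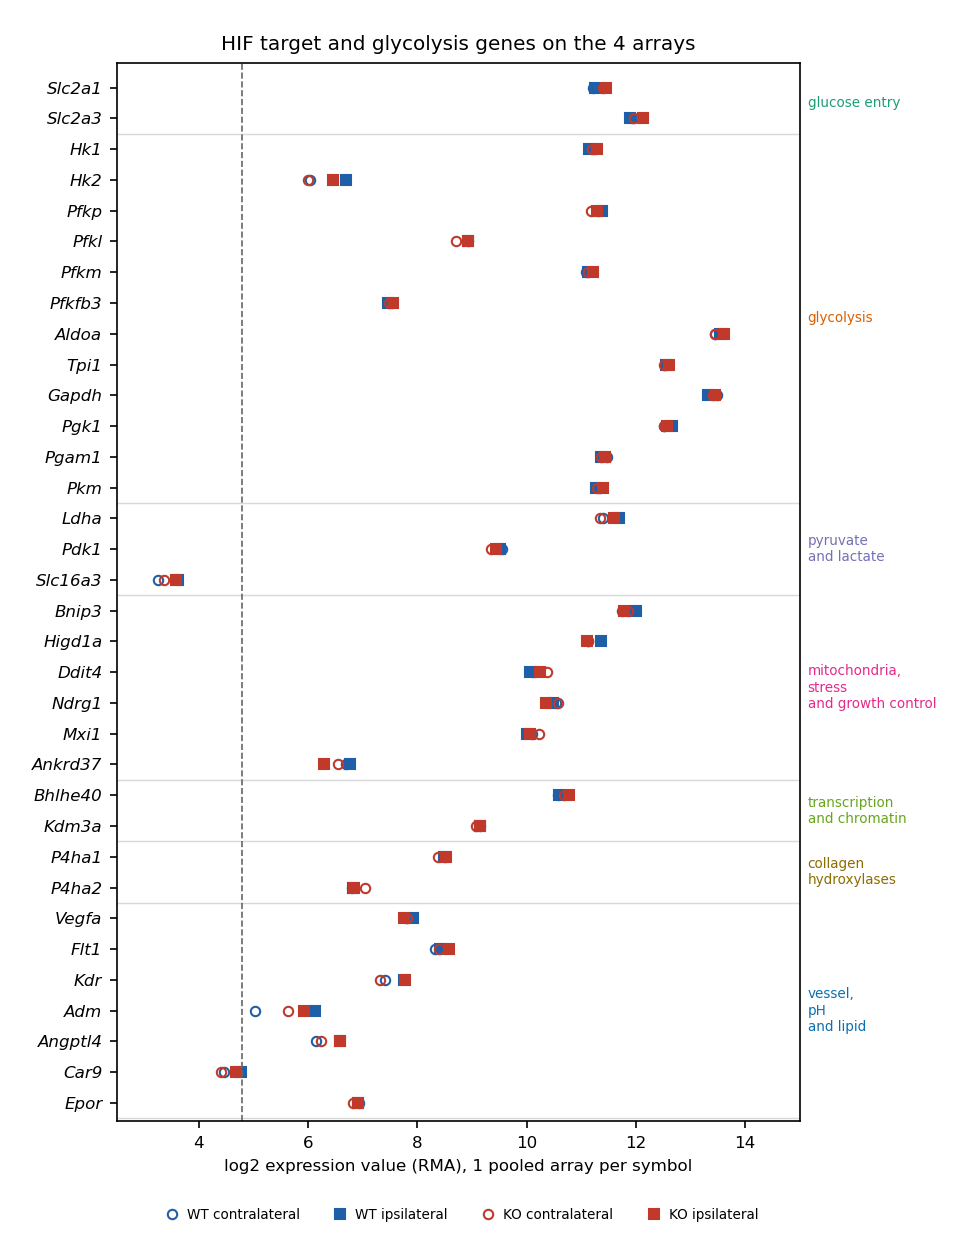
Log2 expression value (horizontal axis) of the 34 measured genes (vertical axis, grouped by role), with 1 symbol per pooled array. Open circles are contralateral and filled squares ipsilateral cortex, blue is wild-type and red P4htm-/- (KO), and the background limit of 4.79 is dashed. Levels of different genes rest on different probes and cannot be set against each other. Within a gene the 4 symbols mostly overlap, apart from *Adm*, *Hk2*, *Ankrd37*, *Kdr* and *Angptl4*, and *Car9* and *Slc16a3* lie left of the limit.

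Ipsilateral and contralateral cortex were compared first, to see how the HIF target and glycolysis genes stood a day after the occlusion. In wild-type mice 2 of the 32 genes were higher in the ipsilateral cortex, *Adm* and *Hk2*, and 0 were lower. Over all 13320 genes the shares were 2.42% higher and 0.443% lower. In P4htm-/- mice 0 of the 32 were higher and 0 lower, against 1.53% and 0.165% of 13309 genes. With 32 genes, 1 gene is a larger share than any of these, so the counts do not set the list apart from the rest of the array. The median difference of the list was 0.025 in wild-type and 0.08 in P4htm-/- mice, beside -0.02 over all genes in each. Values above 0 were read for 18 of 32 genes in wild-type (56.3%, against 45.0% of all genes) and for 24 of 32 in P4htm-/- mice (75.0%, against 41.7%). These comparisons have no test, and 25 of the 32 wild-type differences and 22 of the 32 P4htm-/- differences were smaller than the SD of the receptor probe sets. These are 78.1% and 68.8% of the list, beside 67.8% and 78.2% of all genes. The share under the SD was thus larger in the list than in all genes in wild-type mice, and smaller in P4htm-/- mice. That SD comes from dim probe sets and does not measure the noise of bright ones, such as those of many glycolytic enzymes.

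**Figure D2:**
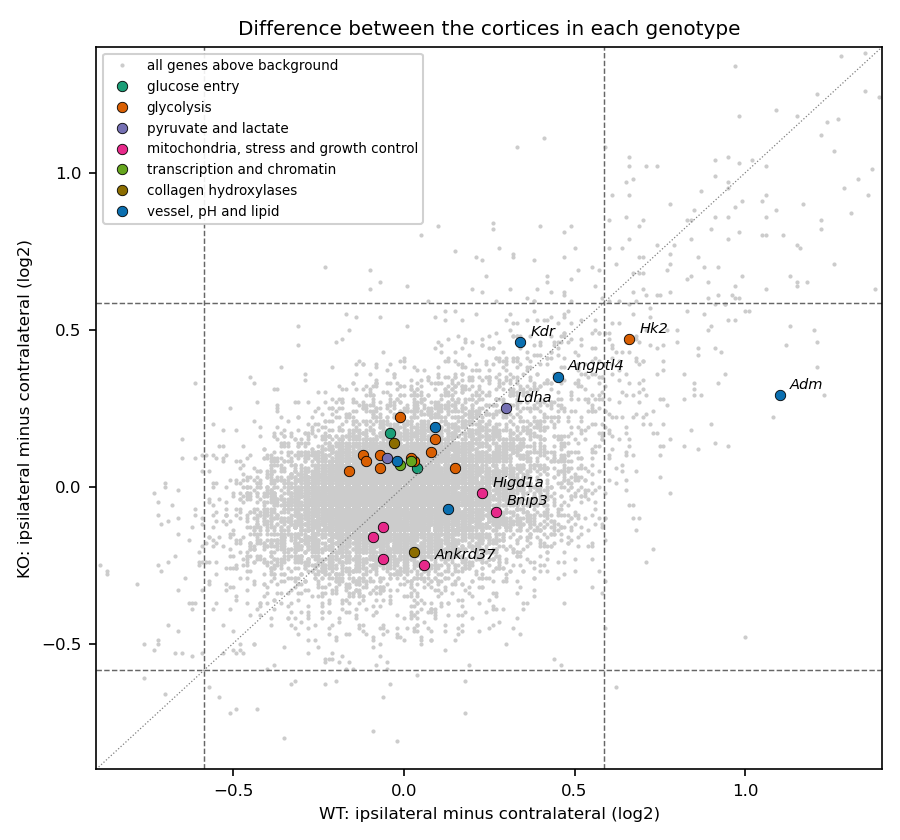
Ipsilateral minus contralateral log2 difference in wild-type (horizontal axis) and P4htm-/- mice (KO, vertical axis), each from 1 pair of pooled arrays. Coloured points are the 32 listed genes above background by role, and grey points are all genes above background that fall within the axes. The dashed lines mark 1.5-fold and the dotted line equal differences. *Adm*, at 1.10 and 0.29, and *Hk2*, at 0.66 and 0.47, lie right of the 1.5-fold line, and most of the other genes lie close to 0 in both genotypes.

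Hexokinase 2 was the glycolytic gene with the largest difference. *Hk2* encodes the inducible hexokinase, which traps glucose in the cell by phosphorylating it. It read 6.04 in WT_c, 6.70 in WT_i, 5.99 in KO_c and 6.46 in KO_i. Both ipsilateral arrays lay above both contralateral arrays, and the difference was 0.66 in wild-type (1.58-fold) and 0.47 in P4htm-/- mice, the second under 1.5-fold. All 4 values were under 6.87, the highest value of any receptor probe set, and with the background limit set there *Hk2* is no longer counted. *Hk2* has 1 probe set, so no other probe set could be compared. *Hk1*, the constitutive hexokinase of brain, read 11.26 in WT_c, 11.14 in WT_i, 11.20 in KO_c and 11.30 in KO_i, and these values span 0.16. A dimmer *Hk1* probe set read 6.48, 6.35, 6.33 and 6.81 in the same order, again with its highest value in KO_i, where it was 0.48 above KO_c.

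By its brightest probe set, each of the remaining 10 glycolytic genes spanned at most 0.22 across the arrays. They are the phosphofructokinase subunits *Pfkp*, *Pfkl* and *Pfkm*, the regulator *Pfkfb3*, and *Aldoa*, *Tpi1*, *Gapdh*, *Pgk1*, *Pgam1* and *Pkm*, which carry the sugar phosphates on to pyruvate. In wild-type mice their ipsilateral minus contralateral differences ran from -0.16 (*Gapdh*) to 0.15 (*Pgk1*), and in P4htm-/- mice from 0.05 (*Gapdh*) to 0.22 (*Pfkl*). *Gapdh* read 13.48 in WT_c, 13.32 in WT_i, 13.41 in KO_c and 13.46 in KO_i. *Pgk1* read 12.52, 12.67, 12.52 and 12.58 in the same order. *Pfkl* read 8.93, 8.92, 8.71 and 8.93, so that its low array was KO_c. The 2 dimmer *Pfkp* probe sets spanned more, 0.56 and 0.54, and ran in opposite directions between the wild-type sides, at -0.46 and 0.48. Between the P4htm-/- sides they differed by -0.35 and 0.19, where the brightest *Pfkp* probe set gave 0.11.

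With both hexokinases included, 6 of the 12 glycolytic genes had a value above 0 in the wild-type comparison, with a median of 0.005, and 12 of 12 had one in P4htm-/- mice, with a median of 0.095, by the brightest probe set of each gene (1 dimmer *Pfkp* probe set, as above, read -0.35). Among all genes with a mean level of at least 10, 37.0% and 41.0% were above 0 in these comparisons. In P4htm-/- mice all of the 12 values but those of *Hk2* and *Pfkl* were under the receptor SD of 0.178, which comes from dim probe sets. The KO_c array enters this comparison and also that between the genotypes on the contralateral side, where 1 of 12 was above 0, so the counts share an array and are not independent. KO_c was also the array with the widest gap between the 3′ and 5′ control probe sets, a measure of how complete the labelled RNA was. For the *Gapdh* control the gap was 0.94 in WT_c, 1.10 in WT_i, 1.33 in KO_c and 1.16 in KO_i. For the β-actin control it was 1.67, 1.73, 1.97 and 1.78. The part of RNA quality in the glycolytic values was not tested.

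*Gapdh* itself is measured only through those control probe sets. Between WT_c and KO_c its 3′ probe set differed by -0.07, the middle one by -0.27 and the 5′ one by -0.46, while between KO_c and KO_i the same probe sets differed by 0.05, 0.16 and 0.22. The farther from the 3′ end, the larger these differences were, and the values above use the 3′ probe set because it was the brightest.

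Glucose enters the brain through *Slc2a1*, the transporter GLUT1 of the vessel wall and glia, and neurons take it up through *Slc2a3*, GLUT3. *Slc2a1* read 11.22 in WT_c, 11.26 in WT_i, 11.40 in KO_c and 11.46 in KO_i. Both P4htm-/- arrays were above both wild-type arrays, by 0.18 on the contralateral and 0.20 on the ipsilateral side, and the sides of 1 genotype differed by 0.04 and 0.06. The other 2 *Slc2a1* probe sets gave genotype differences of 0.19 and 0.33 on the contralateral and 0.21 and 0.18 on the ipsilateral side. All 3 probe sets were thus above 0 on both sides, at 0.18 to 0.33 beside receptor SDs of 0.175 and 0.194, and under 1.5-fold. The endothelial markers, which *Slc2a1* shares a cell type with, had median genotype differences of 0.00 and -0.11 on the 2 sides.

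*Slc2a3* read 11.94 in WT_c, 11.90 in WT_i, 11.96 in KO_c and 12.13 in KO_i. Its highest array was KO_i, 0.23 above WT_i and 0.17 above KO_c. A further probe set gave 0.17 and 0.18 for these differences. On the same pair of ipsilateral arrays the 10 neuronal markers had a median of 0.135, with 9 above 0, and the part of the neuronal share of the RNA in the *Slc2a3* value was not tested.

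Pyruvate is turned into lactate by *Ldha* and kept from the mitochondria by *Pdk1*, a kinase that shuts down pyruvate dehydrogenase. *Ldha* read 11.40 in WT_c, 11.70 in WT_i, 11.35 in KO_c and 11.60 in KO_i. Both ipsilateral arrays were above both contralateral ones, by 0.30 and 0.25, under 1.5-fold in each genotype. *Pdk1* read 9.56, 9.51, 9.35 and 9.44 in the same order, with ipsilateral minus contralateral differences of -0.05 and 0.09. *Slc16a3*, the lactate exporter MCT4, read 3.25 in WT_c, 3.62 in WT_i, 3.36 in KO_c and 3.58 in KO_i, under the limit on all 4 arrays, so no fold is given for it.

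The vessel and lipid genes had the largest differences between the sides, with a median of 0.235 in wild-type and 0.24 in P4htm-/- mice over the 6 of 7 above background. *Adm* encodes adrenomedullin, a peptide that widens vessels. It read 5.02 in WT_c, 6.12 in WT_i, 5.63 in KO_c and 5.92 in KO_i. WT_c was the low array, the ipsilateral cortex was 1.10 higher in wild-type (2.14-fold), and the difference in P4htm-/- mice was 0.29. The probe set behind these values is of the kind whose probes may also bind other sequences. The other *Adm* probe set read 5.06 in WT_c, 5.54 in WT_i, 4.84 in KO_c and 5.54 in KO_i. By it the ipsilateral cortex was above the contralateral by 0.48 in wild-type and by 0.70 in P4htm-/- mice, so both probe sets put both ipsilateral arrays on top but they part on which genotype had the larger difference. All 8 *Adm* values were also under that highest receptor value of 6.87.

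*Kdr*, the main signalling receptor for VEGF-A, read 7.41 in WT_c, 7.75 in WT_i, 7.32 in KO_c and 7.78 in KO_i. *Angptl4*, a hypoxia-responsive inhibitor of lipoprotein lipase, read 6.14, 6.59, 6.24 and 6.59 in the same order. Both ipsilateral arrays were above both contralateral arrays for each of them, by 0.34 and 0.46 for *Kdr* and by 0.45 and 0.35 for *Angptl4* in wild-type and P4htm-/- mice, all under 1.5-fold. The *Angptl4* probe set is of a kind shared between transcripts, and the other one was under background. Endothelial markers moved alongside *Kdr* in part. *Cdh5* differed by 0.48 and 0.46 and *Esam* by 0.43 and 0.33, *Slco1a4* differed by -0.16 and -0.34, and the median over 9 markers was 0.24 and 0.06. The part of the endothelial share of the RNA in the *Kdr* value was not tested.

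*Vegfa*, the central HIF target for vessel growth, did not follow this pattern. It read 7.80 in WT_c, 7.93 in WT_i, 7.82 in KO_c and 7.75 in KO_i, differences of 0.13 and -0.07 between the sides. A dimmer probe set read 5.20, 4.91, 5.24 and 5.08, with differences of -0.29 and -0.16, so the probe sets disagree in sign in wild-type mice. *Flt1*, the VEGF receptor that also acts as a decoy, differed by 0.09 and 0.19. *Epor*, the erythropoietin receptor, read 6.93 in WT_c, 6.91 in WT_i, 6.83 in KO_c and 6.91 in KO_i and spanned 0.10. *Car9*, the membrane carbonic anhydrase that is a common marker of hypoxia in tumours, read 4.46, 4.77, 4.41 and 4.68, under the limit on all 4 arrays, and gets no fold.

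The 6 genes of mitochondria, stress and growth control had a median ipsilateral minus contralateral difference of 0.00 in wild-type and -0.145 in P4htm-/- mice. By the brightest probe set of each gene, 0 of 6 were above 0 in P4htm-/- mice, against 41.7% of all genes. A dimmer *Ndrg1* probe set read 0.03 there. *Bnip3*, a mitochondrial protein of cell death and mitophagy, read 11.74 in WT_c, 12.01 in WT_i, 11.86 in KO_c and 11.78 in KO_i. WT_i was its high array, and the sides differed by 0.27 in wild-type and -0.08 in P4htm-/- mice. *Higd1a*, a mitochondrial protein of hypoxia survival, read 11.13, 11.36, 11.12 and 11.10 in the same order, again with WT_i apart from the other 3. All 3 *Higd1a* probe sets were above 0 in wild-type, at 0.23, 0.09 and 0.06, and below 0 in P4htm-/- mice, at -0.02, -0.09 and -0.13. *Bnip3* has 1 probe set.

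*Ankrd37*, a small ankyrin repeat protein known as a HIF target, read 6.70 in WT_c, 6.76 in WT_i, 6.54 in KO_c and 6.29 in KO_i. KO_i was the low array, -0.25 from KO_c and -0.47 from WT_i. *Ddit4*, which restrains mTORC1 under stress, read 10.12, 10.06, 10.38 and 10.25, with both P4htm-/- arrays above both wild-type arrays. *Mxi1*, an antagonist of MYC, differed by -0.09 and -0.16 between the sides. *Ndrg1*, a stress-responsive gene of oligodendrocytes and other cells, read 10.54 in WT_c, 10.48 in WT_i, 10.58 in KO_c and 10.35 in KO_i. Its 5 probe sets did not run together. Relative to WT_c, KO_c differed by 0.04, 0.05 and -0.02 in 3 of them and by 0.61 and 0.47 in the other 2. The 0.61 was past 1.5-fold, in a dimmer probe set that was not used for the counts.

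*Bhlhe40*, a transcriptional repressor of the clock and of hypoxia, and *Kdm3a*, a histone demethylase, differed by 0.02 and -0.01 between the sides in wild-type mice and by 0.08 and 0.07 in P4htm-/- mice. *P4ha1* and *P4ha2*, catalytic subunits of the collagen prolyl 4-hydroxylases, differed by -0.03 and 0.03 in wild-type and by 0.14 and -0.21 in P4htm-/- mice. *P4ha2* read 6.80 in WT_c, 6.83 in WT_i, 7.05 in KO_c and 6.84 in KO_i, so that KO_c stood apart.

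Markers of other cell types also differed between the sides. All 7 markers of reactive astrocytes were higher in the ipsilateral cortex of both genotypes, with medians of 2.23 and 2.13, and their mean log2 level was 6.40 in WT_c, 8.72 in WT_i, 6.41 in KO_c and 8.54 in KO_i. The 8 general astrocyte markers, which include *Gfap* from that list, had medians of -0.06 and 0.005, and *Gfap* was the 1 of them that was higher. The neutrophil genes *S100a8* and *S100a9* were higher by 2.48 and 2.46 in wild-type and by 2.34 and 1.57 in P4htm-/- mice. Of the other 7 neutrophil markers, *Ltf* differed by 0.15 and -0.06, *Ngp* was above background in KO_i alone, and *Camp*, *Mpo*, *Elane*, *Mmp8* and *Cxcr2* were under background on all 4 arrays. The mean level of all 9 was 4.17 in WT_c, 4.86 in WT_i, 4.54 in KO_c and 5.07 in KO_i. The 8 markers of choroid plexus and ependyma, all above background on at least 1 array, had a mean level of 5.63, 6.91, 5.59 and 6.56 on the same arrays, led by *Ttr*, which was 5.35 and 4.59 higher. All 6 macrophage markers above background were above 0 in both genotypes, with medians of 0.725 and 0.43. Of the 7 markers of meninges and fibroblasts, 5 and 6 were above 0, with medians of 0.36 and 0.32. The blood gene *Hbb-b2* read 5.06 in WT_c, 6.14 in WT_i, 6.04 in KO_c and 6.26 in KO_i, while *Alas2* was above background on 1 array and *Hba-a1* on 0. The part of these cells in the differences of *Hk2*, *Adm*, *Ldha* and *Angptl4* was not tested.

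The genotypes were then compared on each side, to see whether loss of P4H-TM went with more of the HIF target transcripts. On the contralateral side 1 of the 32 genes was higher in P4htm-/- cortex, *Adm* at 0.61, and 0 were lower, against 0.227% and 0.159% of 13207 genes. On the ipsilateral side 0 were higher and 0 lower, against 0.0898% and 0.576% of 13363 genes. The median differences of the list were -0.015 and 0.02, beside -0.01 over all genes on each side, and 13 and 19 of the 32 genes were above 0 (40.6% and 59.4%, against 43.1% and 46.9% of all genes). The call of *Adm* rests on its brighter probe set, which read 5.02 in WT_c and 5.63 in KO_c. The other *Adm* probe set read 5.06 and 4.84 on these arrays, a difference of -0.22. A dimmer *Ndrg1* probe set, not used for the counts, also differed by 0.61 on this side.

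**Figure D3:**
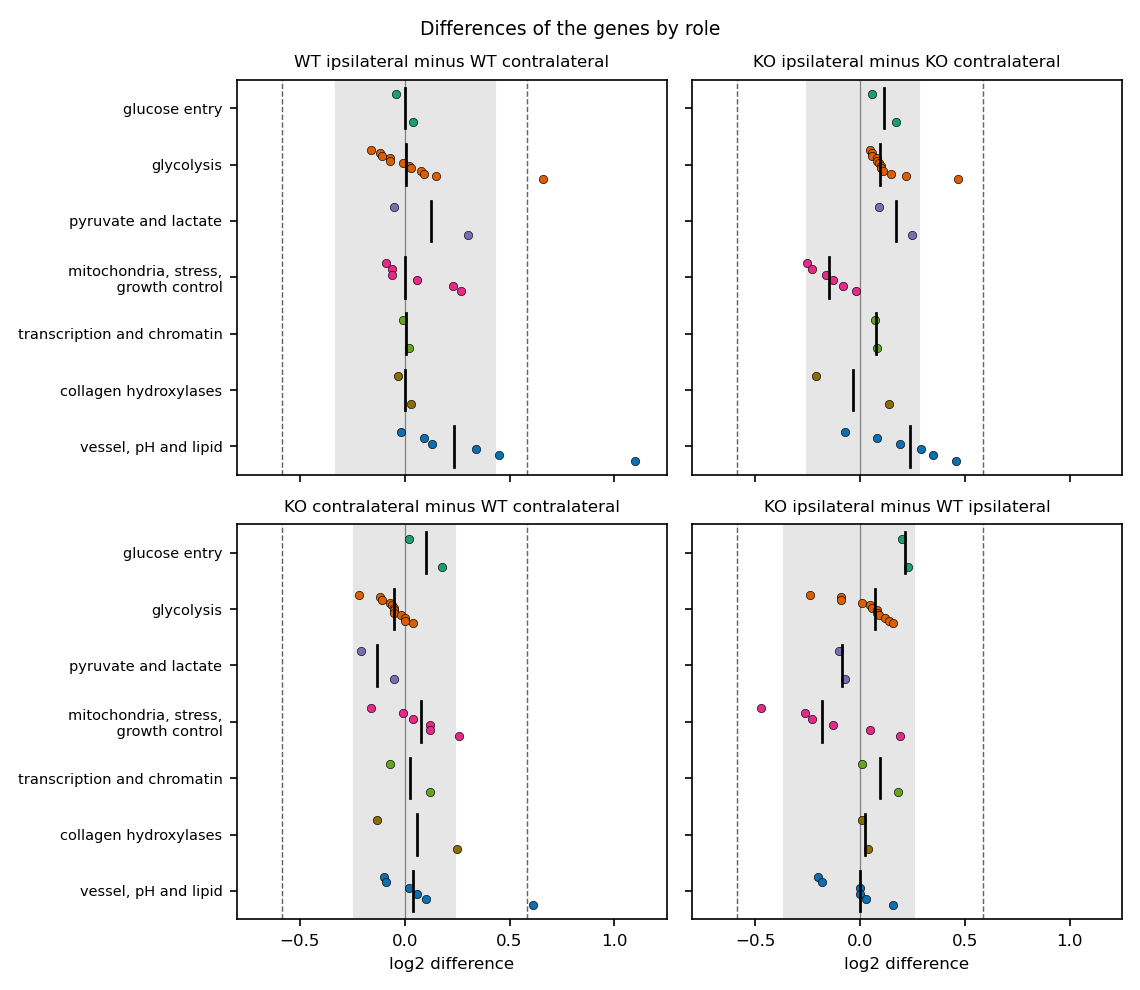
Log2 difference (horizontal axis) of the 32 genes by role (vertical axis) in the 4 comparisons, each between 2 pooled arrays, with KO for P4htm-/-. Each dot is a gene, the black bar is the median of the role, the grey band holds the 5th to 95th percentile of all genes above background, and the dashed lines mark 1.5-fold. Dots past the dashed lines are *Adm* and *Hk2* in wild-type mice (1.10 and 0.66) and *Adm* between the contralateral arrays (0.61), and all 12 glycolytic genes, each by its brightest probe set, lie right of 0 between the P4htm-/- arrays.

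By role, the 12 glycolytic genes had a median of -0.05 between the genotypes on the contralateral side and 0.07 on the ipsilateral side, with 1 and 9 of 12 above 0. On the same arrays 2 and 9 of the 10 neuronal markers were above 0, with medians of -0.04 and 0.135, as were 38.9% and 55.8% of all genes with a mean level of at least 10. The part of the neuronal share of the RNA in the glycolytic values was not tested. The 6 genes of mitochondria, stress and growth control had 0.08 and -0.18, and the 2 glucose transporters 0.10 and 0.215. On the ipsilateral side, *Ankrd37* had the lowest value of the list (-0.47), followed by *Higd1a* (-0.26), *Hk2* (-0.24) and *Bnip3* (-0.23), and *Slc2a3* the highest (0.23). Of the 4 lowest, *Ankrd37* lay outside the range of -0.36 to 0.26 that held the 5th to 95th percentile of all genes. On the contralateral side *Pfkl* was lowest (-0.22) and *Adm*, *Ddit4* (0.26) and *P4ha2* (0.25) were highest, with 0.24 as the 95th percentile of all genes.

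The ipsilateral minus contralateral difference was then set against itself between the genotypes, P4htm-/- minus wild-type. The median over the 32 genes was 0.055, with 19 above and 13 below 0, beside 0.00 over all genes. *Adm* had the largest gap (-0.81), then *Bnip3* (-0.35), *Ankrd37* (-0.31) and *Higd1a* (-0.25), and at the other end stood *Pfkl* (0.23) and *Hk1* (0.22). The other *Adm* probe set gave a gap of 0.22, in the opposite direction. Such a gap combines 4 arrays. The receptor probe sets had an SD of 0.286 for it, which 29 of the 32 genes did not reach. The shares of all genes under this SD and above 0 were not counted, so these counts do not set the list apart. Over all genes the 5th to 95th percentile of the gap ran from -0.42 to 0.32. Over all genes 1.88% had a gap of at least 1.5-fold in either direction. By the brightest probe set of each gene, *Adm* was the 1 listed gene that did. A dimmer *Hk1* probe set gave a gap of 0.61, also past 1.5-fold, where the brightest *Hk1* probe set gave 0.22. A dimmer *Ndrg1* probe set gave -0.51 and the 5′ *Gapdh* probe set 0.54. No test of this gap could be made.

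**Figure D4:**
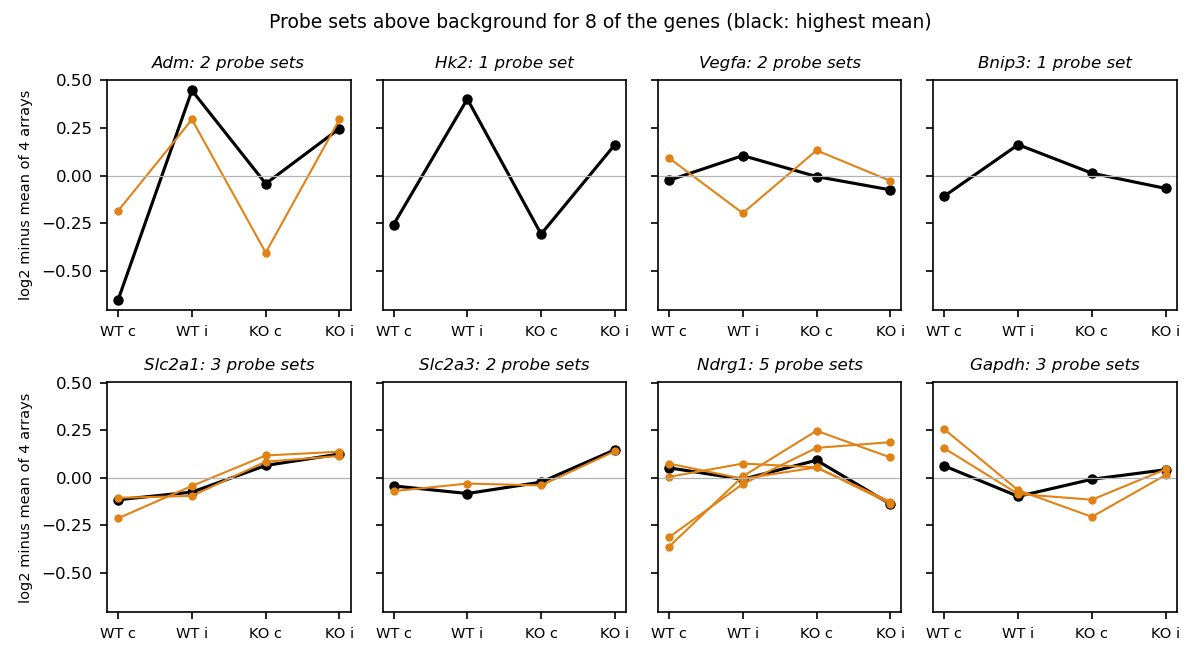
Log2 value minus the probe set's own mean over the 4 arrays (vertical axis) for each array (horizontal axis, c contralateral, i ipsilateral, KO for P4htm-/-), for all probe sets above background of 8 of the genes. Black is the probe set with the highest mean, used in the text, orange are the others, and lines only join the points of a probe set. The *Slc2a1* and *Slc2a3* lines run together, and the *Ndrg1* lines part at WT_c and KO_i. Both *Adm* probe sets have their ipsilateral points above their contralateral ones but differ over WT_c and KO_c.

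Agreement between probe sets gave a further view of how far single differences can be read. Of the 32 genes, 17 had at least 2 probe sets above background and 15 had 1. All probe sets of a gene had the same sign in 8 of the 17 genes for the wild-type sides, 13 for the P4htm-/- sides, 10 for the genotypes on the contralateral and 8 on the ipsilateral side. A difference of 0.00 counted as a sign of its own. The same counts were not made over all genes, so they do not set the list apart. Over all genes with several probe sets, probe sets of 1 gene differed with an SD of 0.136 to 0.188, close in size to most of the differences above.

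Another 39 measured genes of the same pathways, 38 of them above background, were viewed beside the list. They include further isoforms of the glycolytic enzymes, pyruvate dehydrogenase kinases, monocarboxylate transporters, glycogen and collagen-modifying enzymes, HIF prolyl hydroxylases, angiogenic ligands and receptors, and other listed HIF targets such as *Hmox1*, *Tfrc*, *Vldlr* and *Stc2*. In each genotype 1 of them was higher in the ipsilateral cortex and 0 were lower, and between the genotypes 0 were higher and 0 lower on both sides. The 1 gene was *Hmox1*, heme oxygenase 1, which breaks down heme and answers to oxidative stress through NRF2 as well as to HIF. It read 5.48 in WT_c, 7.47 in WT_i, 5.91 in KO_c and 7.33 in KO_i, and both ipsilateral arrays were above both contralateral ones by 1.99 and 1.42. *Slc16a1*, the lactate transporter MCT1, differed by 0.37 and 0.48 between the sides. *Egln1* and *Egln3*, the HIF prolyl hydroxylases that are themselves HIF targets, differed by -0.13 and -0.05 in wild-type and by -0.06 and 0.06 in P4htm-/- mice. The median of these genes between the sides was 0.00 in wild-type and 0.06 in P4htm-/- mice.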

How the data were processed

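RNA of cortex was hybridized to 4 expression arrays, each holding the pooled RNA of 4 mice. The values the authors deposited are log2 values of probe sets from RMA, named in the submitters' processing notes, which corrects background and equalizes the distributions of the arrays, so a shift common to all genes would not be seen. The RMA version and genome build were not given in the sources used here, and the base of the logarithm was taken as 2 from the range of 2.51 to 14.9. No value column was left unused (0 columns).

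Of 45101 probe sets, 34958 named 1 gene in the platform annotation, 932 named several and 9211 had no name in it. The symbols of 34754 were updated by Entrez ID through a RefSeq table (GRCm38.p6). A gene was read from its probe set with the highest mean. Array medians were 5.53 to 5.55, and 59.2% to 59.8% of probe sets were above background. With 1 array per condition, the number of arrays limits the precision and counts at 1.5-fold replace a test. The counting was tested on simulated data, with doublings in genes well above the background limit. That test does not cover smaller differences or genes as dim as *Adm*.

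The genes, the role groups, the pathway and marker lists and the rule for named genes were chosen with earlier results of these data known. Full values were given for genes past 1.5-fold, for genes under background and for *Vegfa*, *Slc2a1*, *Slc2a3*, *Bnip3* and *Epor*, which the study measured by qRT-PCR. The rule also asked for the extremes of each role. Of these, *Bhlhe40*, *Kdm3a*, *P4ha1*, *Mxi1*, *Flt1* and *Pfkm* were not given array by array. Other genes given array by array were picked after their values were seen. Alternatives were the mean of a gene's probe sets, leaving out probe sets with an ID ending in _x_at or _s_at where another was present (7 of the listed genes were read from such a probe set), other background limits, other folds, subtraction of array medians, and cyclic loess. Cyclic loess was run with limma 3.58.1 in R 4.3.3, and everything else in Python 3.11.15 (numpy 2.4.6, pandas 2.3.3, matplotlib 3.10.9).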

Additional observations from a re-analysis of the deposited data

Results flagged for a closer look

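*Adm* was the 1 listed gene whose P4htm-/- minus wild-type difference had opposite signs on the 2 sides with both sizes above the spread of the receptor probe sets. The difference was 0.61 on the contralateral and -0.20 on the ipsilateral side, -0.81 apart, and it was not tested, since each value rests on 1 pair of pooled arrays. The other *Adm* probe set gave -0.22 and 0.00.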

How the results depend on the processing

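Of the counts and medians of the list, 83 values under an alternative were close to those given and 11 moved. In the ipsilateral minus contralateral comparison of wild-type mice, the 2 genes counted as higher became 1 without probe sets of the _x_at and _s_at kinds, 1 at 2-fold, 4 at a fold threshold below 1.5 and 0 with the background limit at the highest receptor value. In P4htm-/- mice the count of 0 became 1 without those probe sets, where *Adm* read 0.70, and 3 at that lower threshold. Between the genotypes, the 1 gene higher on the contralateral side became 0 with the mean of the probe sets, with the higher background limit, at 2-fold and with cyclic loess, and the 0 lower on the ipsilateral side became 1 at the lower threshold. *Adm* on the contralateral side reversed to -0.22 without the _x_at and _s_at probe sets and read 0.20 with the mean of its probe sets and 0.58 with cyclic loess. Without the _x_at and _s_at probe sets the count on that side stayed at 1, but the gene counted was then *Ndrg1*, at 0.61. With cyclic loess the count fell because *Adm*, at 0.58, was then just under the threshold of 0.585, and what shifted its value was not tested. For the other counts the construction of each alternative accounts for the change. The medians of the list ran from -0.01 to 0.06 (wild-type sides), 0.08 to 0.09 (P4htm-/- sides), -0.05 to 0.02 (genotypes, contralateral) and 0.01 to 0.05 (genotypes, ipsilateral). The median gap between the genotypes in the ipsilateral minus contralateral difference ran from -0.04 to 0.06. It fell below 0 with the mean of the probe sets of a gene. Without the _x_at and _s_at probe sets *Slc2a3* rests on a probe set under background. Dim genes such as *Adm* and *Hk2* lie within the range of the receptor probe sets. No paired analysis was possible because each condition has 1 array, and leaving out an array leaves no comparison.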
